A study of Mus musculus with 72 samples.

Results

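High dietary isoleucine was compared with low dietary isoleucine in the fasted livers of male C57BL/6J (B6) mice. The comparison holds 12 of the 72 RNA-seq libraries of the study, taken by the class prefix of the library titles and the diet labels, with 6 libraries on the Western diet with high isoleucine and 6 on the Western diet with low isoleucine. A further 6 libraries of B6 males on the Western diet with a control isoleucine content are given beside them where stated. All 3 groups ate a Western diet, a diet used to bring about obesity and fatty liver in mice, for 12 weeks and were fasted for 16 h overnight before the livers were taken, so no group shows the liver on standard chow or in the fed state. The strain label of these libraries reads C56BL/6J, whereas the design text gives C57BL/6J. The age label is 18 weeks, and the labels differ on the age at the start of the diets, which is 6 weeks in the design text and 18 weeks in the treatment text. The remaining 54 libraries are B6 females, DBA/2J (DBA) females and DBA males on the same 3 diets. The sources used here give neither the isoleucine content of each diet nor the number of animals.

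Isoleucine, which mammals cannot make, is a branched-chain amino acid whose first breakdown step takes place mostly outside the liver, while the liver oxidises the keto acids that muscle and other tissues release. In a fasted liver, glucagon, glucocorticoids and the fatty acid receptor PPARA drive gluconeogenesis and fatty acid oxidation, and insulin together with the transcription factor SREBP1C drives fatty acid synthesis after feeding. The hepatic clock, in which ARNTL and CLOCK activate and PER, CRY and REV-ERB proteins repress, sets a daily rhythm on many of these genes and follows the time of feeding.

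The libraries held 17 to 51.1 M counts (M, 1e6) with high isoleucine (median 18.2) and 20.2 to 45.5 M counts with low isoleucine (median 26.3). Mitochondrially encoded genes took 8.92 to 14% of the counts with high isoleucine and 8.33 to 12.9% with low isoleucine. Albumin (Alb) had 41900 to 56000 CPM (counts per 1e6, after TMM scaling of the library sizes) in high isoleucine livers, against 64400 to 80400 CPM in low isoleucine livers, so the liver label was met in every library. The first principal component of the 12 libraries held 33.8% of their variance, and 83.6% of it lay between the diets. High isoleucine libraries ran from -58.1 to -6.01 on this component, and low isoleucine libraries from 24.7 to 37.1. The libraries of a diet are numbered here from 1 to 6 in the order of the series. Their titles carry a number shared by 2 libraries of a diet, and the labels do not say what it means. High isoleucine libraries 1 and 2, which share the title number 14, lay nearest to the low isoleucine libraries, at -6.01 and -10.4. Results that move with these libraries are therefore also given without both of them, an alternative chosen after seeing the data. The labels do not say that each library is a separate animal. The p-values therefore set the difference between the diets only against the spread between libraries, some of which may be technical. That spread was estimated within groups over all 72 libraries of the study.

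Of 14954 genes with enough counts, 2128 (14.2%) were higher and 1741 (11.6%) lower in high than in low isoleucine livers at an adjusted p under 0.05 (edgeR's quasi-likelihood test with Benjamini-Hochberg adjustment). Changes of at least 2-fold were made by 600 of the higher genes (4.01% of those tested) and 220 of the lower ones (1.47%). The 6 high and the 6 low libraries did not overlap at all for 1275 genes (8.53%). With the title number as a random block, fitted by limma voom in place of edgeR, 1335 genes were higher and 1141 lower. Limma voom without the block called 2006 higher and 1803 lower. For single genes, the effects of the tool and of the block were not separated. With the libraries of a number summed into 1, which leaves 3 against 3, 1117 were higher and 726 lower in edgeR. The median log2 fold change over all genes was 0.02. Below, levels are CPM given as the lowest, median and highest of the 6 libraries of a diet. Fold changes are log2 of high over low isoleucine with an approximate standard error (SE). The SE is the absolute log2 fold change divided by the square root of the F statistic of edgeR's quasi-likelihood test. Each list of genes is described by how many of its tested members passed the same threshold. Such counts stand beside the 25.9% of all genes called in either direction (14.2% higher and 11.6% lower). A list near these shares does not stand out from all genes.

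**Figure D1:**
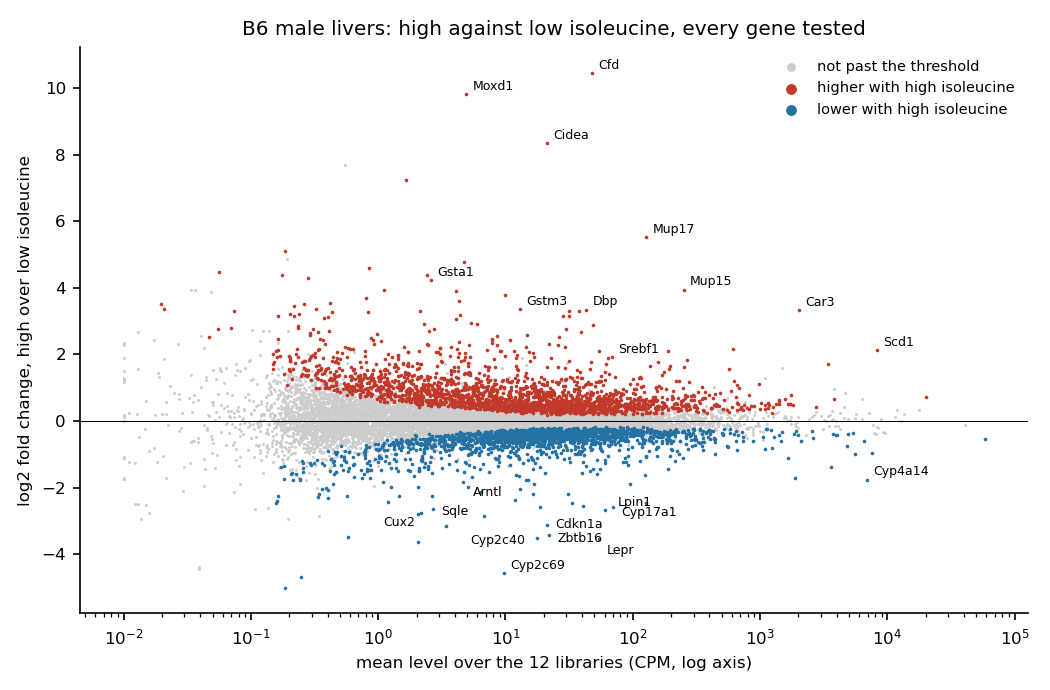
Log2 fold change of high over low isoleucine in B6 male livers (vertical axis) against the mean level over the 12 libraries in CPM (horizontal log axis), with 1 point for each of the 14954 genes tested. Red points are the 2128 genes higher and blue points the 1741 genes lower with high isoleucine, and Cfd (10.47) and Cidea (8.35) stand at the top.

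Cfd and Cidea were among the 10 genes with the largest rises. Cfd, which encodes adipsin, the complement factor D that is best known from fat cells (chromosome 10, 79890853 to 79892655, plus strand, GRCm38), had 8.67, 90.5 and 193 CPM in high isoleucine livers, against 0, 0.0348 and 0.148 CPM in low isoleucine livers. The log2 fold change of 10.47 (SE 1.09, adjusted p = 3.6e-10) rests on 11 counts in all 6 low libraries together, 3 of which held none, and was 11.15 without low library 2. Cidea, a lipid droplet protein of brown fat and of fatty liver, had 0.757, 52.4 and 70.2 CPM with high isoleucine and 0.0453, 0.12 and 0.226 CPM with low isoleucine, a change of 8.35 (SE 0.78, adjusted p = 1.5e-11). For both genes every high library lay above every low library, and high library 1 was the lowest of its diet. Moxd1, a monooxygenase-like gene also among the 10 largest rises, is given as values only, with 31.5, 22.8 and 4.73 CPM in high libraries 1, 2 and 4, none in the other 3 high libraries and 1 count in the 6 low libraries together. Its call was lost without both libraries of number 14 (adjusted p = 0.062) and with the title number as a block (adjusted p = 0.44). Markers of fat cells themselves were at or near 0 in these livers. Adipoq held 6 counts in the 6 high libraries and 6 in the 6 low libraries, Plin1 held 3 and 4, Retn 3 and 0, and Lep none. Fabp4, which fat cells share with endothelium and macrophages, had 6.14, 12.5 and 12.9 CPM with high isoleucine and 6.79, 7.7 and 8.87 CPM with low isoleucine and did not pass the test (adjusted p = 0.15). Car3, a carbonic anhydrase of fat, muscle and liver, had 1650, 3880 and 6630 CPM in high isoleucine livers and 132, 407 and 505 CPM in low isoleucine livers (3.34, SE 0.48, adjusted p = 5.2e-07). The 3 tested adipose genes summed to between 1670 and 6700 CPM with high isoleucine and between 140 and 512 CPM with low isoleucine. Car3 made up most of these sums, so they add little to its own values. Whether cells from fat contributed was not tested.

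Genes of fatty acid synthesis moved in both directions, with 5 of 24 tested members higher and 4 lower (median 0.17). Srebf1, the gene of the lipogenic transcription factor SREBP1, had 66.2, 99.4 and 174 CPM with high isoleucine and 16.5, 31.1 and 38.3 CPM with low isoleucine. It rose by 1.91 (SE 0.30, adjusted p = 2.5e-06), with no overlap between the diets. Thrsp, a regulator of lipogenesis, had 6.51, 54.6 and 121 CPM in high isoleucine livers and 3.89, 6.19 and 8.85 CPM in low isoleucine livers (3.15, SE 0.54, adjusted p = 1.7e-05). Scd1, the stearoyl-CoA desaturase that makes monounsaturated fatty acids (chromosome 19, 44394455 to 44407879, minus strand), had 1510, 16800 and 21000 CPM with high isoleucine, against 1190, 2880 and 6100 CPM with low isoleucine. It rose by 2.14 (SE 0.51, adjusted p = 0.0013), and the diets overlapped because high libraries 1 and 2, at 1510 and 4350 CPM, lay within the low isoleucine range. Fasn, the fatty acid synthase, had 43.2, 72.1 and 117 CPM with high isoleucine and 44.2, 45.3 and 72.6 CPM with low isoleucine (0.55, adjusted p = 0.079). Its adjusted p was 0.015 without both libraries of number 14, and between 0.035 and 0.048 when high library 1, high library 2 or low library 6 alone was left out.

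Against these stood enzymes of the same list that fell. Acacb, the mitochondrial acetyl-CoA carboxylase whose product restrains fatty acid oxidation, had 21.1, 24.5 and 27.6 CPM in high isoleucine livers and 51.7, 63.9 and 69.2 CPM in low isoleucine livers (-1.34, SE 0.20, adjusted p = 8.2e-07). Lpin1, a phosphatidate phosphatase and partner of PGC1A that fasting induces, had 13.3, 15.2 and 24.6 CPM with high isoleucine and 20.7, 91 and 226 CPM with low isoleucine (-2.68, SE 0.48, adjusted p = 2.7e-05). The highest high library lay above the lowest low library, so the diets overlapped for Lpin1.

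Of 22 tested genes of lipid droplets and PPARG targets, 10 rose and 2 fell (median 0.42). Without high library 6 the list had 7 calls in all, and with the title number as a block 6 rose and 1 fell. Pparg, the receptor that turns on fat storage genes in steatotic liver, had 9.15, 19 and 31 CPM with high isoleucine and 7.44, 8.05 and 10.1 CPM with low isoleucine (1.21, SE 0.19, adjusted p = 3.1e-06). Fitm1, which partitions triglyceride into droplets, had 23.1, 50.8 and 74.5 CPM with high isoleucine and 4.62, 9.22 and 17.3 CPM with low isoleucine (2.22, SE 0.36, adjusted p = 4.2e-06). Plin5, a droplet coat protein that links droplets to mitochondria and is a PPARA target, went the other way, with 43.6, 59.3 and 81 CPM in high isoleucine livers and 110, 119 and 150 CPM in low isoleucine livers (-1.05, SE 0.18, adjusted p = 1.4e-05). Cidec, the relative of Cidea best known from fatty liver, had 19, 80.7 and 97.1 CPM with high isoleucine and 21.5, 29.6 and 55.4 CPM with low isoleucine and missed the threshold (1.02, adjusted p = 0.064). It passed without both libraries of number 14 (1.38, adjusted p = 0.014) and when high library 1, high library 2 or low library 5 was left out, with adjusted p between 0.026 and 0.045.

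**Figure D2:**
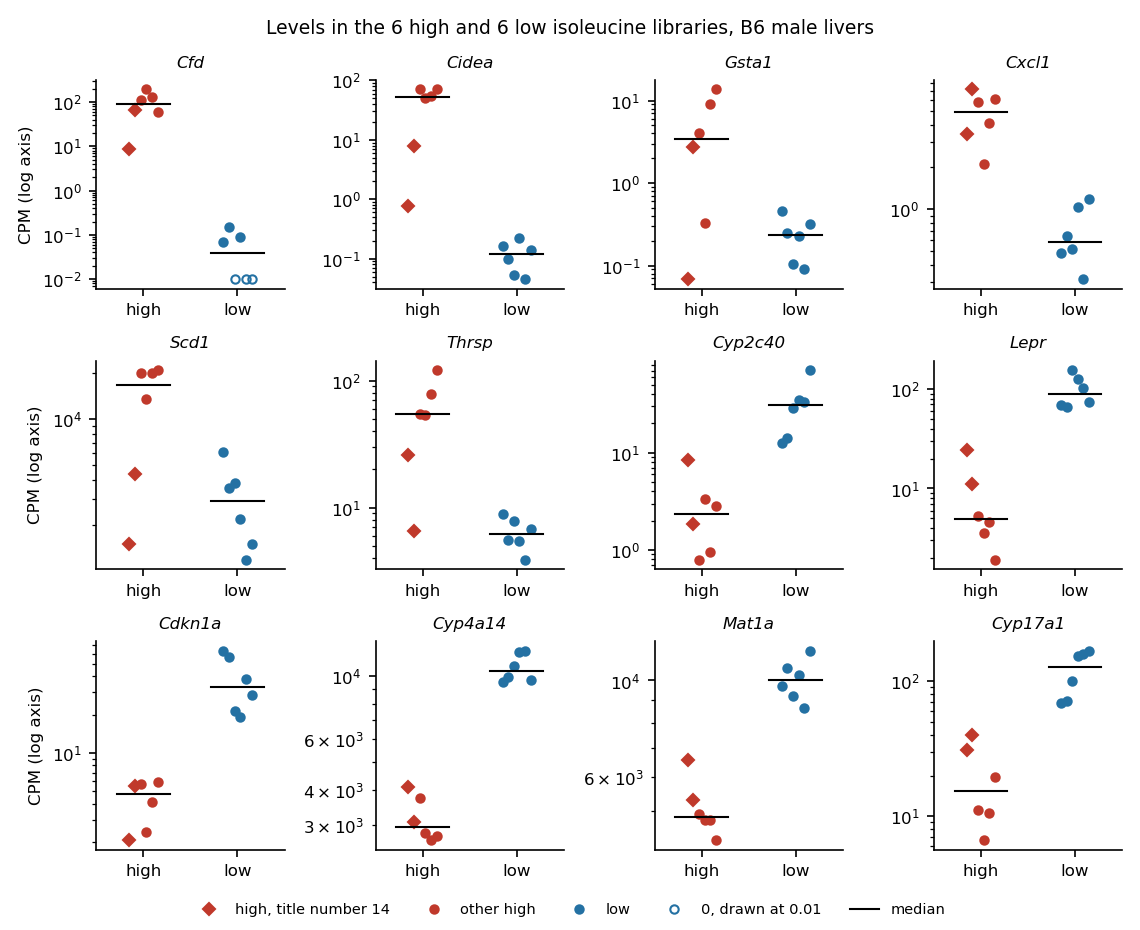
Levels of 12 named genes in each library, in CPM on log axes, with the 6 high isoleucine libraries left of the 6 low isoleucine libraries in every panel. Diamonds are the high libraries that share title number 14, bars are medians and open circles stand for libraries with no count, drawn at 0.01. The diamonds are the lowest high libraries for Scd1 and Thrsp and the highest for Lepr.

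Most called genes of fatty acid oxidation were lower. Among 39 tested genes of the list, 18 fell and 3 rose (median -0.24), and with the title number as a block 12 fell and 2 rose. Cyp4a14, a fatty acid omega-hydroxylase and a sensitive PPARA target (chromosome 4, 115486200 to 115496142, minus strand), had 2650, 2940 and 4080 CPM with high isoleucine, against 9540, 10400 and 12300 CPM with low isoleucine. The change of -1.76 (SE 0.18, adjusted p = 7.1e-11) left a wide gap between the diets. Its close relative Cyp4a10 had 2710, 3720 and 5310 CPM with high isoleucine and 6590, 7570 and 8010 CPM with low isoleucine (-1.0, SE 0.13, adjusted p = 3.6e-08), and reads may be shared between such relatives. Ehhadh, the peroxisomal bifunctional enzyme (chromosome 16, 21761287 to 21787807, minus strand), had 766, 829 and 1050 CPM in high isoleucine livers and 2530, 2730 and 3690 CPM in low isoleucine livers (-1.70, SE 0.22, adjusted p = 3.9e-08). Pdk4, the kinase that shuts pyruvate out of oxidation during fasting, had 3.37, 10.1 and 18.3 CPM with high isoleucine and 23, 62.2 and 74.1 CPM with low isoleucine (-2.47, SE 0.45, adjusted p = 3.6e-05). None of these 4 genes overlapped between the diets.

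In the gluconeogenesis and fasting list 10 of 18 tested genes fell and 1 rose (median -0.50). Lepr, the leptin receptor gene, whose soluble form the fasted liver releases (chromosome 4, 101717404 to 101815352, plus strand), had 1.92, 4.97 and 24.5 CPM with high isoleucine and 66.7, 88.5 and 155 CPM with low isoleucine (-3.56, SE 0.52, adjusted p = 7.6e-07). High libraries 1 and 2 held the most Lepr of their diet, and the change was -4.64 without both and -4.19 without high library 1 alone. Insr, the insulin receptor gene, had 62.4, 93.5 and 99.1 CPM in high isoleucine livers and 120, 130 and 133 CPM in low isoleucine livers (-0.57, SE 0.11, adjusted p = 4.7e-05). Sirt1, a deacetylase active in fasting, had 4.59, 7.26 and 9.59 CPM with high isoleucine and 10.4, 11.8 and 13 CPM with low isoleucine (-0.70, SE 0.13, adjusted p = 4.5e-05). Gadd45a, a stress gene, was the member that rose, with 1.71, 2.78 and 5.75 CPM with high isoleucine and 0.748, 0.942 and 1.36 CPM with low isoleucine (1.72, SE 0.35, adjusted p = 0.00019). Pck1, the cytosolic PEP carboxykinase of gluconeogenesis, had 1120, 2160 and 3030 CPM with high isoleucine and 2340, 3200 and 3620 CPM with low isoleucine (-0.52, SE 0.19, adjusted p = 0.038). That call is fragile, because it was lost with the title number as a block (adjusted p = 0.051) and, with adjusted p of up to 0.15, when any of low libraries 2, 3, 4 and 6 or high libraries 3, 5 and 6 was left out. Fgf21, the fasting hormone, had 7.35, 10.6 and 29.4 CPM with high isoleucine and 18.3, 27.5 and 31.5 CPM with low isoleucine and was not called (-0.77, adjusted p = 0.16), though without both libraries of number 14 it passed (-1.52, adjusted p = 0.01).

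Genes that glucocorticoids induce, a list that also holds Lpin1, fell in 5 of 12 tested members and rose in 1 (median -0.71). Fkbp5, a chaperone gene used as a readout of the glucocorticoid receptor, had 17.7, 26.3 and 39.3 CPM with high isoleucine and 46.8, 73.2 and 94 CPM with low isoleucine (-1.43, SE 0.27, adjusted p = 8e-05). Zbtb16, another such gene, had 1.23, 3.5 and 8.12 CPM in high isoleucine livers and 8.06, 46.8 and 58.7 CPM in low isoleucine livers (-3.44, SE 0.62, adjusted p = 3e-05). Cdkn1a, of the p53 list, the cell cycle inhibitor p21 (chromosome 17, 29090976 to 29100727, plus strand), had 2.06, 4.79 and 5.88 CPM with high isoleucine and 19, 33.1 and 63.3 CPM with low isoleucine (-3.14, SE 0.63, adjusted p = 0.00016). Of the 15 tested p53 targets 2 rose and 5 fell (median 0.12). Without high library 4 the list had 4 calls, and with the title number as a block 1 rose and 3 fell.

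Genes that break down branched-chain amino acids showed small changes. Of 24 tested members 6 rose and 1 fell (median 0.11), 4 were called without low library 5, and 3 rose and 1 fell with the title number as a block. The share called was 29.2%, near the 25.9% of all genes. Pcca, a subunit of propionyl-CoA carboxylase, which takes up the propionyl-CoA from isoleucine and valine, had 60.3, 79.9 and 86.4 CPM in high isoleucine livers and 48.3, 56.2 and 58.6 CPM in low isoleucine livers (0.48, SE 0.11, adjusted p = 0.00077). Hibadh, an enzyme of valine breakdown, had 264, 313 and 331 CPM with high isoleucine and 176, 197 and 272 CPM with low isoleucine (0.50, SE 0.12, adjusted p = 0.0015). Acad8, the isobutyryl-CoA dehydrogenase of the same route, had 56, 57.7 and 60.3 CPM with high isoleucine and 63.1, 68.5 and 72.9 CPM with low isoleucine (-0.25, SE 0.07, adjusted p = 0.011), and lost its call with the libraries of a title number summed (adjusted p = 0.072). Bckdhb, a subunit of the complex that commits branched-chain keto acids to oxidation, had 59.9, 70.4 and 101 CPM with high isoleucine and 53.1, 75.4 and 92.1 CPM with low isoleucine (0.02, SE 0.11, adjusted p = 0.93).

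Other amino acid pathways held larger changes. In the methionine and sulfur amino acid list 8 of 14 tested genes fell and 1 rose (median -0.36). The list had 5 calls when low library 2 or high library 3, 5 or 6 was left out. Mat1a, which makes S-adenosylmethionine, had 4290, 4860 and 6550 CPM in high isoleucine livers and 8650, 10000 and 11700 CPM in low isoleucine livers (-0.97, SE 0.16, adjusted p = 3.5e-06), without overlap between the diets. In amino acid catabolism and the urea cycle 9 of 36 tested genes rose and 10 fell, with 9 calls in all without high library 6, 11 without low library 6, and 4 higher and 6 lower with the title number as a block. Cps1, which fixes ammonia at the entry of the urea cycle, had 1120, 1970 and 3070 CPM with high isoleucine and 4740, 5110 and 6230 CPM with low isoleucine (-1.39, SE 0.23, adjusted p = 8.1e-06). Otc, the next enzyme of the cycle, moved the other way, with 331, 371 and 435 CPM with high isoleucine and 181, 230 and 257 CPM with low isoleucine (0.74, SE 0.12, adjusted p = 3.1e-06).

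Among targets of ATF4, the transcription factor that responds to amino acid shortage, 6 of 29 tested members rose and 3 fell (median 0.05). There were 5 calls without low library 2. The share called was 31%, near the 25.9% of all genes. Without both libraries of number 14, 4 members rose and 5 fell (median -0.13), and with the title number as a block 4 rose and 4 fell. Asns, asparagine synthetase and a sensitive ATF4 target, had 0.32, 1.93 and 15.6 CPM in high isoleucine livers and 4.21, 9.29 and 14.8 CPM in low isoleucine livers and was not called (-0.66, adjusted p = 0.43). High libraries 1 and 2 held the most Asns of their diet, and without both it passed (-2.94, adjusted p = 0.00059). It also passed in the limma voom fit with the title number as a block (adjusted p = 0.0075). Trib3, another ATF4 target, had 7.85, 10.7 and 15.3 CPM with high isoleucine and 6.02, 8.5 and 11.7 CPM with low isoleucine (0.24, adjusted p = 0.52). Gdf15, a stress hormone of the same list, had 0.979, 2.18 and 5.38 CPM with high isoleucine and 0.313, 0.539 and 1.36 CPM with low isoleucine (2.07, SE 0.54, adjusted p = 0.0032). Eif4ebp3, a translation repressor, had 9.78, 23.6 and 119 CPM with high isoleucine and 101, 133 and 228 CPM with low isoleucine (-1.88, SE 0.53, adjusted p = 0.0064), and its change was -2.58 without both libraries of number 14 and -2.56 without high library 1 alone. Genes of cytosolic ribosomal proteins fell in 16 of 24 tested members, and none rose (median -0.37). Rpl3, a protein of the large subunit, had 179, 197 and 302 CPM in high isoleucine livers and 311, 368 and 436 CPM in low isoleucine livers (-0.75, SE 0.11, adjusted p = 4.4e-07). Without both libraries of number 14 the list had 23 members lower and a median of -0.63.

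The hepatic clock list changed in most of its members. Of 20 tested genes 10 were higher and 6 lower (median 0.64), against 14.2% and 11.6% of all genes. There were 15 to 17 calls when any 1 library was left out, and 5 higher and 5 lower with the libraries of a title number summed. The 8 genes with a printed stretch below carry, within 250 bases before to 50 after a transcription start in RefSeq's GRCm38.p6 annotation, a sequence bound by clock factors. Capitals mark the E-box CACGTG (bound by ARNTL and CLOCK), the D-box TTATGNAA (bound by DBP, TEF, HLF and NFIL3) or the core TAGGTCA of the element bound by ROR and REV-ERB proteins (RORE), searched on both strands. These letters occur in 7.15%, 3.38% and 2.61% of the 32851 windows of 300 bases in the table, and 17 of the 20 clock genes had a window.
Ciart, chr3:95882257-95882354, minus strand: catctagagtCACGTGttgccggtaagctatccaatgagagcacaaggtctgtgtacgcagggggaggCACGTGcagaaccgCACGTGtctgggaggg
Per3, chr4:151044806-151044880, minus strand: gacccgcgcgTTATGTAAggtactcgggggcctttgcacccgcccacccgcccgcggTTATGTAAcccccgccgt
Per1, chr11:69098773-69098942, plus strand: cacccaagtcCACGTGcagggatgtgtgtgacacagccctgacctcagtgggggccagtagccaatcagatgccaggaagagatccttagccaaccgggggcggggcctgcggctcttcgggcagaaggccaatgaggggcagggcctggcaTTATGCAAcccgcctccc
Tef, chr15:81802536-81802561, plus strand: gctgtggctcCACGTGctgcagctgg
Tef, second start, chr15:81811266-81811291, plus strand: cctggcccagCACGTGtctacatcgt
Bhlhe41, chr6:145865558-145865583, minus strand: gtacgttccgCACGTGagctgggtgc
Cry1, chr10:85185099-85185124, minus strand: tgccggtggtCACGTGgggtgcatgc
Nfil3, chr13:52981040-52981061, minus strand, RORE core on the other strand: cgctcggaacTGACCTActaac
Arntl, chr7:113207530-113207559, plus strand, after the start: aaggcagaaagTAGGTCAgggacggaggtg

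The activator arm was lower with high isoleucine. Arntl, the gene of the core activator BMAL1 that carries the RORE core printed above, had 2.06, 3.33 and 7.42 CPM in high isoleucine livers and 16, 20.2 and 24.4 CPM in low isoleucine livers (-2.37, SE 0.37, adjusted p = 2.5e-06). Npas2, a partner of BMAL1, had 0.482, 0.912 and 1.04 CPM with high isoleucine and 1.9, 3.62 and 4.17 CPM with low isoleucine (-1.98, adjusted p = 0.00014). Clock, its other partner, had 16.5, 25.7 and 34.1 CPM with high isoleucine and 38.2, 43.5 and 54 CPM with low isoleucine (-0.76, adjusted p = 0.00025). The diets did not overlap for any of these 3 genes. Also lower were Cry1, a repressor with an E-box (-0.93, adjusted p = 0.0006), Nfil3, a repressor at D-boxes with the RORE core (-0.78, adjusted p = 0.015), and Rora, an activator at ROREs (-0.66, adjusted p = 0.00013).

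Output genes and most repressors were higher. Dbp, a D-box activator and a direct target of BMAL1 (chromosome 7, 45705088 to 45710203, plus strand), had 43.9, 82.9 and 102 CPM with high isoleucine, against 3.62, 6.48 and 14.7 CPM with low isoleucine. It rose by 3.35 (SE 0.49, adjusted p = 7.2e-07), with no overlap, although its window held none of the 3 motifs. Ciart, a BMAL1 repressor with 3 E-boxes in its window, had 1.5, 7.35 and 11 CPM in high isoleucine livers and 0.77, 1.1 and 2.92 CPM in low isoleucine livers (2.39, SE 0.62, adjusted p = 0.003). Bhlhe41, an E-box repressor, had 3.04, 3.98 and 5.3 CPM with high isoleucine and 0.543, 0.761 and 1.41 CPM with low isoleucine (2.31, SE 0.44, adjusted p = 6.4e-05). Per3, with 2 D-boxes, had 7.92, 20.4 and 28.4 CPM with high isoleucine and 3.12, 5.04 and 8.37 CPM with low isoleucine (1.90, SE 0.43, adjusted p = 0.00071). Nr1d1, the gene of REV-ERB alpha, had 102, 135 and 152 CPM with high isoleucine and 40.9, 61.1 and 70.2 CPM with low isoleucine (1.12, SE 0.32, adjusted p = 0.0068), without overlap. With the libraries summed, Ciart (adjusted p = 0.075) and Nr1d1 (adjusted p = 0.061) were not called. Smaller rises passed the test in Per2 (1.17, adjusted p = 0.007) and Cry2 (0.64, adjusted p = 0.0017). Usp2, a deubiquitinase under clock control (1.53, adjusted p = 0.019), lost its call with the title number as a block (adjusted p = 0.057). Tef (0.64, adjusted p = 0.026) lost its call with that block (adjusted p = 0.074) and when low library 3, low library 4 or high library 4 was left out. Per2 (adjusted p = 0.085) and Nfil3 (adjusted p = 0.12) also lost their calls with the libraries summed. Of the members given here 4 were not called: Per1 (-0.06, adjusted p = 0.93), Hlf (0.29, adjusted p = 0.15), Nr1d2 (0.31, adjusted p = 0.13) and Bhlhe40 (0.65, adjusted p = 0.067). Without both libraries of number 14 Hlf (adjusted p = 0.041) and Bhlhe40 (adjusted p = 0.027) passed, and Bhlhe40 also passed without high library 1 alone. The time of day at which the livers were taken is not in the labels, so a shift of phase and a change of level cannot be told apart.

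**Figure D3:**
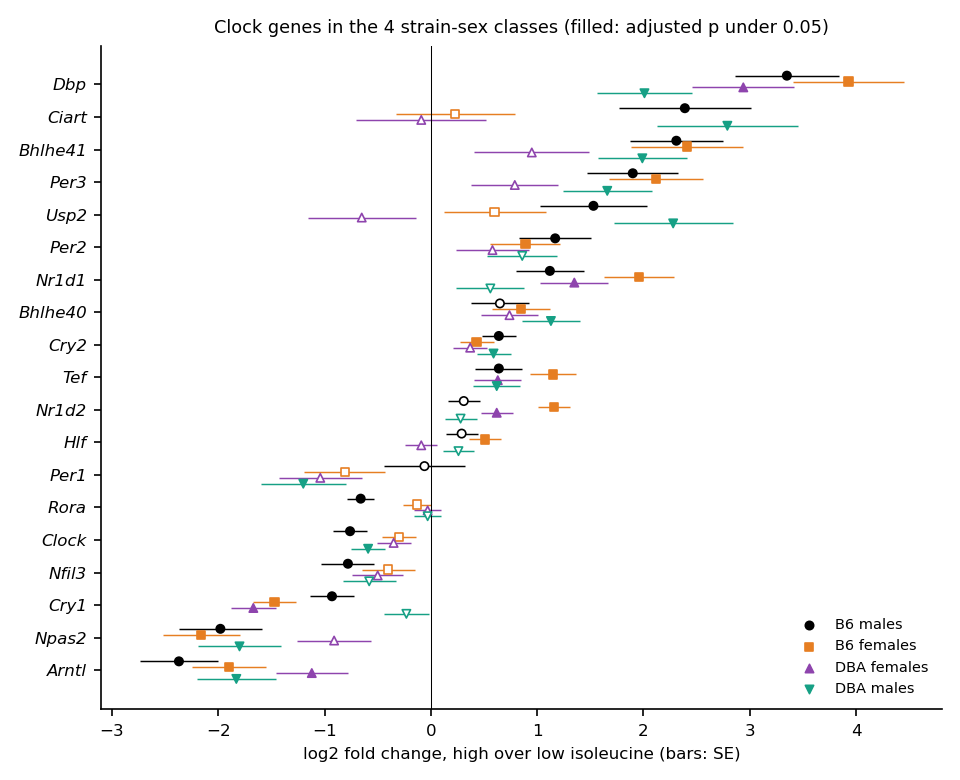
Log2 fold changes of high over low isoleucine (horizontal axis, with bars of 1 SE) for 19 clock genes, 1 row per gene, in B6 males (black), B6 females, DBA females and DBA males. Filled markers have an adjusted p under 0.05. In B6 males Dbp lies farthest to the right (3.35) and Arntl farthest to the left (-2.37), and both are filled in all 4 classes.

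Genes with a male bias in mouse liver, which follow the pulses of growth hormone in males, rose in 13 of 24 tested members and fell in none (median 1.0). With the title number as a block 8 rose, and without both libraries of number 14 there were 7 higher and 1 lower, with a median of 0.39. Mup17, a major urinary protein gene outside that list and among the 10 largest rises (chromosome 4, 61591929 to 61595871, minus strand), had 76.2, 132 and 729 CPM in high isoleucine livers and 1.63, 4.15 and 14.5 CPM in low isoleucine livers (5.53, SE 0.71, adjusted p = 4.4e-08). The change was 4.83 without high library 1 and 6.13 without low library 6. Its relative Mup15 had 88.4, 194 and 1760 CPM with high isoleucine and 8.15, 17.5 and 94.1 CPM with low isoleucine (3.95, SE 0.74, adjusted p = 5.6e-05). This change was 2.80 without high library 1 and 4.73 without low library 6. Mup genes are near copies of each other, so their counts may be split between relatives. Cyp2u1, a cytochrome P450 gene of the list, had 10.9, 16.2 and 24.6 CPM with high isoleucine and 5.34, 6.89 and 8.46 CPM with low isoleucine (1.3, SE 0.22, adjusted p = 6.4e-06), without overlap. Ugt2b1, a glucuronosyltransferase gene, had 287, 473 and 656 CPM with high isoleucine and 172, 266 and 326 CPM with low isoleucine (0.87, SE 0.18, adjusted p = 0.00022).

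Of 28 tested genes with a female bias, 9 fell and 2 rose (median -0.51). The median was -0.34 without both libraries of number 14, with 9 lower and 4 higher, and -0.78 without high library 4 and -1.03 without high library 6. It was -1.38 in a fit of the 18 B6 male libraries alone, which tested 18 of these genes. Cyp2c69 (chromosome 19, 39842814 to 39886799, minus strand), a female-biased P450, had 0.17, 0.576 and 2.68 CPM with high isoleucine, against 5.18, 18.7 and 38.4 CPM with low isoleucine (-4.57, SE 0.67, adjusted p = 8.9e-07). Cyp2c40, its neighbour on chromosome 19 and a close relative with which it may share reads, had 0.793, 2.32 and 8.47 CPM with high isoleucine and 12.6, 31.3 and 70.7 CPM with low isoleucine (-3.51, SE 0.53, adjusted p = 1.2e-06). Neither overlapped between the diets, and without high library 1 the changes were -5.22 for Cyp2c69 and -4.13 for Cyp2c40. Cux2, a transcription factor specific to female liver, had 0.167, 0.306 and 1.93 CPM with high isoleucine and 0.641, 2.66 and 11.5 CPM with low isoleucine (-2.78, SE 0.81, adjusted p = 0.0085). Its call was lost with the title number as a block (adjusted p = 0.19) and without low library 4 (-2.01), and its change was -3.39 without high library 1. Ntrk2, a neurotrophin receptor gene, was among the 2 that rose, with 3.3, 8.87 and 12.1 CPM with high isoleucine and 0.362, 0.709 and 1.51 CPM with low isoleucine (3.20, SE 0.36, adjusted p = 1.9e-09). Cyp17a1, a steroid hydroxylase gene of the list, had 6.63, 15.4 and 40.3 CPM with high isoleucine and 69.4, 127 and 168 CPM with low isoleucine (-2.60, SE 0.59, adjusted p = 0.00073), and -3.33 without both libraries of number 14. Cyp2b9 had 0, 4.82 and 178 CPM with high isoleucine and 13.2, 39.3 and 77.9 CPM with low isoleucine (-0.26, adjusted p = 0.84). Without high library 6, which held the 178 CPM, it was called at -2.85 (adjusted p = 0.0069). It was also called in the limma voom fit with the title number as a block (adjusted p = 0.00054).

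Within growth hormone signalling 2 of 14 tested genes rose and 3 fell, and 3 were called without low library 4. Ghr, the growth hormone receptor gene, had 313, 343 and 404 CPM with high isoleucine and 192, 226 and 257 CPM with low isoleucine (0.63, SE 0.12, adjusted p = 8.4e-05). Stat5b, which carries the growth hormone signal to the nucleus, had 21.4, 34.9 and 37.2 CPM with high isoleucine and 39.8, 45.9 and 53 CPM with low isoleucine (-0.53, SE 0.10, adjusted p = 9.3e-05). Both passed without overlap. Igf1, the growth factor gene that growth hormone induces, had 377, 521 and 908 CPM in high isoleucine livers and 322, 481 and 571 CPM in low isoleucine livers (0.31, adjusted p = 0.15).

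Glutathione transferases made up most of the rises in the NRF2 and glutathione list, in which 7 of 20 tested genes rose and 1 fell (median 0.42, 5 calls without low library 4, and 4 higher with the title number as a block). Gstm1 (chromosome 3, 108012255 to 108017973, minus strand) had 887, 1150 and 2400 CPM with high isoleucine and 489, 650 and 729 CPM with low isoleucine (1.10, SE 0.18, adjusted p = 5.2e-06). Gstm3 had 4.06, 18.2 and 66 CPM with high isoleucine and 1.82, 2.37 and 2.63 CPM with low isoleucine (3.37, SE 0.43, adjusted p = 4.6e-08). Both Gstm genes were free of overlap, though their sequences are close enough to share reads, and without high library 6 the change of Gstm3 was 2.75. Gsta1 had 0.0688, 3.39 and 13.6 CPM in high isoleucine livers and 0.0905, 0.236 and 0.465 CPM in low isoleucine livers (4.24, SE 0.78, adjusted p = 4e-05), and high libraries 1 and 4 lay below the highest low library. Among targets of the drug receptors CAR and PXR, 3 of 17 tested members rose and 1 fell. The share called was 23.5%, against 25.9% of all genes, so this list did not stand out. Cyp2c29, a CAR target, had 537, 862 and 1430 CPM with high isoleucine and 253, 403 and 456 CPM with low isoleucine (1.19, SE 0.29, adjusted p = 0.0017).

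Sterol genes changed in a few members. Abcg5 and Abcg8 encode the partners of the transporter that exports sterols into bile. Abcg5 had 114, 143 and 197 CPM in high isoleucine livers and 44.6, 61.6 and 97.1 CPM in low isoleucine livers (1.11, SE 0.17, adjusted p = 1.8e-06). Abcg8 had 104, 164 and 182 CPM with high isoleucine and 67.7, 74.1 and 87.4 CPM with low isoleucine (1.02, SE 0.16, adjusted p = 1.4e-06). They share a promoter region and moved together without overlap. In the same bile acid and sterol list, where 5 of 24 tested genes rose and 4 fell, Cyp39a1, an oxysterol hydroxylase, had 6.09, 12.7 and 14.2 CPM with high isoleucine and 45.3, 70.7 and 90.3 CPM with low isoleucine (-2.56, SE 0.34, adjusted p = 1.2e-07). Cyp7a1, the rate-limiting enzyme of bile acid synthesis, had 101, 147 and 263 CPM with high isoleucine and 105, 213 and 300 CPM with low isoleucine (-0.34, adjusted p = 0.58). Of 25 tested genes of cholesterol synthesis 4 fell and 1 rose (median -0.38), with 2 calls without low library 6, 3 without high library 4, and 1 in each direction with the title number as a block. The share called was 20%, against 25.9% of all genes. Without both libraries of number 14 there were 6 lower and 2 higher. Hsd17b7, an enzyme of that pathway, had 10.3, 17.9 and 33.5 CPM in high isoleucine livers and 34.4, 46.6 and 53.9 CPM in low isoleucine livers (-1.24, SE 0.22, adjusted p = 3.3e-05). Sqle, squalene epoxidase, had 0.32, 0.617 and 1.17 CPM with high isoleucine and 1.09, 2.1 and 17 CPM with low isoleucine (-2.64, SE 0.80, adjusted p = 0.011). Low library 6 held the 17 CPM, and without it the change was -1.53 (adjusted p = 0.17).

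Heat shock and cold-inducible genes fell in 8 of 15 tested members and rose in none (median -0.53). There were 5 lower without high library 3, without high library 6 or with the title number as a block. Hsp90aa1, the inducible cytosolic HSP90 gene, had 99.4, 129 and 148 CPM with high isoleucine and 151, 229 and 425 CPM with low isoleucine (-1.06, SE 0.25, adjusted p = 0.00094). Hspd1, the mitochondrial chaperonin gene, had 312, 368 and 394 CPM in high isoleucine livers and 427, 503 and 629 CPM in low isoleucine livers (-0.50, SE 0.11, adjusted p = 0.0005). Neither gene overlapped between the diets. In the unfolded protein response 5 of 23 tested genes fell and none rose (median -0.30), with 2 calls without low library 6 or high library 6 and 3 without high library 5. The share called was 21.7%, all lower, against 25.9% of all genes in either direction and 11.6% lower. Without both libraries of number 14 there were 8 lower. Dnajc3, a chaperone of the endoplasmic reticulum, had 87.6, 123 and 144 CPM with high isoleucine and 153, 161 and 180 CPM with low isoleucine (-0.45, SE 0.13, adjusted p = 0.0071), but not with the libraries of a title number summed (adjusted p = 0.074). Cell cycle genes rose in 7 of 25 tested members and fell in none (median 0.72). There were 5 calls without low library 4, without high library 5 or with the title number as a block, and 10 without both libraries of number 14. The lowest median over all alternatives was 0.26. E2f1, the S-phase transcription factor gene, had 0.964, 2.64 and 5.11 CPM with high isoleucine and 0.272, 0.61 and 0.679 CPM with low isoleucine (2.22, SE 0.32, adjusted p = 3.4e-07).

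Most called immune genes were higher with high isoleucine. In the interferon list 15 of 30 tested genes rose and none fell (median 0.57), and with the title number as a block 9 rose. Oasl1, an interferon-induced antiviral gene, had 12.8, 20.2 and 34.1 CPM in high isoleucine livers and 6.94, 8.45 and 10.6 CPM in low isoleucine livers (1.29, SE 0.21, adjusted p = 7e-06). Ifit1, another such gene, had 8.13, 16.6 and 21.3 CPM with high isoleucine and 4.53, 7.11 and 8.01 CPM with low isoleucine (1.20, SE 0.28, adjusted p = 0.00094). The diets did not overlap in either gene. Antigen presentation by MHC class I rose in 8 of 12 tested genes and fell in none (median 0.56). B2m, the invariant chain of class I, had 1350, 1630 and 2230 CPM with high isoleucine and 994, 1080 and 1300 CPM with low isoleucine (0.63, SE 0.14, adjusted p = 0.00049). For MHC class II 6 of 7 tested genes rose, but 1 did so without high library 3, which held the most of them. Cd74, the class II invariant chain gene, had 111, 139 and 304 CPM in high isoleucine livers and 38.6, 58.7 and 110 CPM in low isoleucine livers (1.3, SE 0.32, adjusted p = 0.0021). Acute phase genes rose in 9 of 26 tested members and fell in 2, but the median was only 0.07, and -0.05 without both libraries of number 14. Their sum was 18600, 19800 and 28200 CPM with high isoleucine and 20600, 22800 and 23800 CPM with low isoleucine, so the list as a whole did not rise. Cxcl1, a neutrophil chemokine gene, had 2.12, 4.99 and 7.17 CPM with high isoleucine and 0.317, 0.58 and 1.18 CPM with low isoleucine (2.78, SE 0.34, adjusted p = 9.9e-09). Saa4, a serum amyloid gene, had 200 to 317 CPM with high isoleucine and 86.9 to 103 CPM with low isoleucine (1.38, SE 0.20, adjusted p = 7.4e-07).

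Markers of immune cells moved with these lists. Kupffer cell markers rose in 11 of 13 tested genes (median 1.22) and fell in none. Their sum was 172, 366 and 836 CPM with high isoleucine and 111, 188 and 264 CPM with low isoleucine. The diets overlapped in every one of these markers. There were 8 calls without high library 3, and 8 rose with the title number as a block. The lowest median with 1 library left out was 0.76. Clec4f, the marker that defines Kupffer cells, had 32.9, 71.5 and 113 CPM in high isoleucine livers and 27.8, 38.2 and 51.9 CPM in low isoleucine livers (0.90, SE 0.18, adjusted p = 0.0002). Markers of infiltrating and lipid-associated macrophages rose in 10 of 15 tested genes (median 1.3). Their sum was 89.3, 136 and 227 CPM with high isoleucine and 83.3, 92.2 and 105 CPM with low isoleucine. There were 7 calls without high library 3, and 7 rose with the title number as a block. Mmp12, a macrophage elastase gene, had 0.551, 3.59 and 7.47 CPM with high isoleucine and 0.255, 0.417 and 0.589 CPM with low isoleucine (3.31, SE 0.63, adjusted p = 8.3e-05). Lymphocyte markers rose in 8 of 21 tested genes (median 0.59), with a sum of 26.3, 43.8 and 96.4 CPM with high isoleucine and 15.1, 21.2 and 29.7 CPM with low isoleucine. Igkc, the kappa light chain of B cells, had 4.46, 14.5 and 31.2 CPM with high isoleucine and 1.97, 3.65 and 5.03 CPM with low isoleucine (2.11, SE 0.44, adjusted p = 0.00028). Fewer cells of a type and less RNA per cell cannot be told apart in bulk liver, and the part of the cell makeup in the immune and collagen lists was not tested. Of 22 tested markers of stellate cells and collagen 7 rose and 1 fell (median 0.38). Col1a1, a fibrillar collagen gene, had 6.09, 13.5 and 18.7 CPM in high isoleucine livers and 1.77, 3.54 and 5.47 CPM in low isoleucine livers (1.87, SE 0.32, adjusted p = 1.6e-05), without overlap. Col3a1, another, had 14.5, 44.3 and 67.8 CPM with high isoleucine and 9.64, 14.9 and 16.9 CPM with low isoleucine (1.59, SE 0.26, adjusted p = 5.2e-06). Sinusoidal endothelium had 3 of 18 tested markers lower and none higher, and without both libraries of number 14 it had 2 higher and none lower. The 3 lower markers were 16.7% of those tested, against 11.6% of all genes. Hepatocyte markers summed to 87400, 101000 and 127000 CPM with high isoleucine and 118000, 125000 and 143000 CPM with low isoleucine. Of the 12 tested hepatocyte markers 3 were lower, and 6 without both libraries of number 14.

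**Figure D4:**
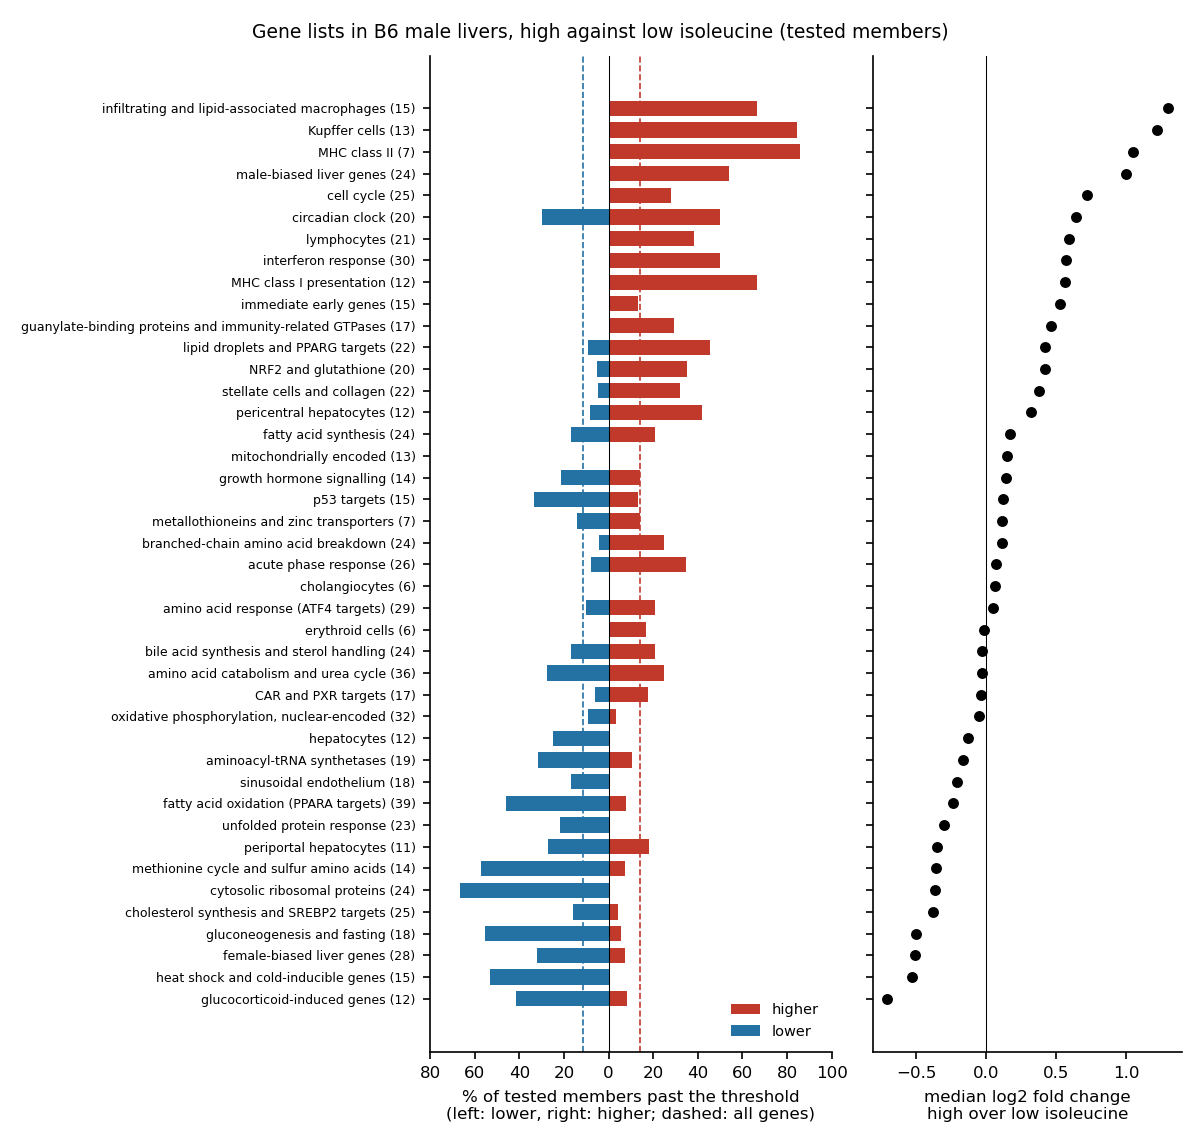
Left, the percentage of tested members of each list (number tested in brackets) that were higher (red, to the right) or lower (blue, to the left) with high than with low isoleucine in B6 male livers at an adjusted p under 0.05, with dashed lines at the shares of all genes (14.2% and 11.6%). Lists with at least 6 tested members are drawn. Right, the median log2 fold change of each list drawn, from 1.3 for infiltrating macrophage markers at the top to -0.71 for glucocorticoid-induced genes at the bottom.

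The same contrast was run in the other 3 classes, which share no library with it, within the same fit. B6 females had 2857 genes past the threshold (19.1%), DBA females 2223 (14.9%) and DBA males 2137 (14.3%). Of the 3869 genes called in B6 males, 1162 were called in the same direction in B6 females (30% of the B6 male calls and 40.7% of the B6 female calls), 863 in DBA males (22.3% and 40.4%) and 611 in DBA females (15.8% and 27.5%). Calls in the opposite direction numbered 31, 25 and 70 in these classes. Same-direction calls in all 4 classes were made for 230 genes (5.94% of the B6 male calls), and 2174 (56.2%) had no such call in another class, which does not by itself show a difference between classes. Dbp, Arntl, Lepr and Cdkn1a were called in 1 direction in all 4 classes. Lepr had log2 fold changes of -3.56 in B6 males, -2.20 in B6 females, -3.05 in DBA males and -1.33 in DBA females.

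The difference between classes was tested directly, and 1604 genes (10.7%) had a change in B6 males that differed from the mean change of the other 3 classes, 5.6% of all genes in the positive and 5.13% in the negative direction. With the title number as a block this count was 528. Cfd had a log2 fold change of 10.47 in B6 males, 0.64 in B6 females, -3.66 in DBA females and 2.31 in DBA males, none of the last 3 past the threshold (difference 10.71, SE 1.73, adjusted p = 0.00011). Cidea had 8.35 in B6 males, -1.5 in B6 females, -1.41 in DBA females and 0.75 in DBA males (difference 9.07, SE 1.3, adjusted p = 2.5e-05, and 0.056 with the title number as a block). Nat8, an acetyltransferase gene of liver and kidney, rose by 0.94 in B6 males and had -0.77 in B6 females, -0.91 in DBA females and -1.84 in DBA males, of which the last passed the threshold (difference 2.11, SE 0.31, adjusted p = 2.5e-05). Mcc had -1.58 in B6 males, -0.37 in B6 females, -0.10 in DBA females and -0.50 in DBA males (difference -1.25, SE 0.19, adjusted p = 6.5e-05). Capns1, a calpain subunit gene, had 0.88 in B6 males, 0.27 in B6 females, 0.07 in DBA females and 0.11 in DBA males (difference 0.73, SE 0.12, adjusted p = 0.00011). Against B6 females alone 633 genes (4.23%) differed, and 86 with the title number as a block. Among the 633, Klf11, a transcription factor gene, fell by 1.01 in B6 males and rose by 0.76 in B6 females (difference -1.77, SE 0.30, adjusted p = 0.00034). Against DBA males alone 755 genes (5.05%) differed, and 54 with the title number as a block. Mup17 was one of the 755 (5.53 in B6 males, 0.36 in DBA males, difference 5.18, SE 0.87, adjusted p = 0.00032). Slc13a3, a dicarboxylate transporter gene, was another (1.91 in B6 males, 0.25 in DBA males, difference 1.66, SE 0.27, adjusted p = 0.00023). It had 18.2, 25.8 and 38.2 CPM in high isoleucine livers and 5.52, 6.66 and 9.45 CPM in low isoleucine livers of B6 males.

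Some lists held many genes whose change differed between classes in the main fit. These counts of list members were not made again with the title number as a block. Over all genes the block gave 528 such differences in place of 1604. Interferon genes were higher in 28, 29 and 27 of 30 members in B6 females, DBA females and DBA males, against 15 in B6 males, and the difference from the mean of those classes passed the test as a smaller rise in 15 of the 30. Over all genes 10.3% were higher in B6 females, 8.75% in DBA females and 8.02% in DBA males. Ifit1 rose by 1.20 in B6 males and by 1.77, 2.21 and 2.52 in B6 females, DBA females and DBA males (difference -0.97, SE 0.32, adjusted p = 0.039), a difference that was lost with the title number as a block (adjusted p = 0.13) and without both libraries of number 14 (adjusted p = 0.16). Collagen and stellate cell markers had 11 of 22 members with a more positive change in B6 males, Col1a1 among them (difference 1.77, SE 0.38, adjusted p = 0.0017). Heat shock genes had 8 of 15 members with a more negative change. Hsp90aa1 had log2 fold changes of -1.06 in B6 males and of 0.15, 0.46 and 0.27 in B6 females, DBA females and DBA males (difference -1.35, SE 0.28, adjusted p = 0.0014). The clock list had 1 of 20 such members, Rora (difference -0.59, adjusted p = 0.0072).

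**Figure D5:**
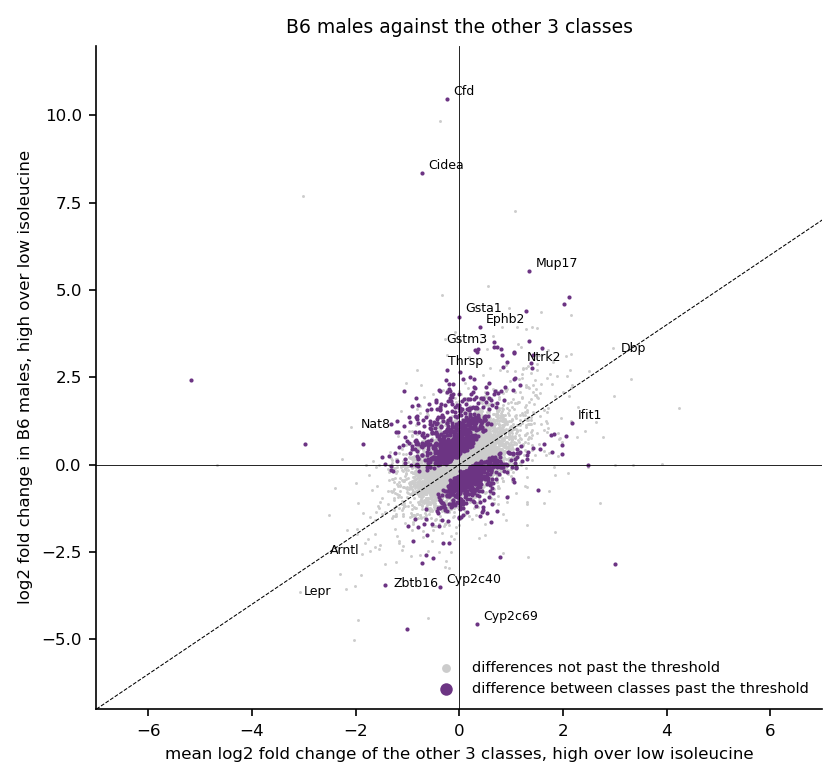
Log2 fold change of high over low isoleucine in B6 males (vertical axis) against the mean log2 fold change of B6 females, DBA females and DBA males (horizontal axis), with 1 point per gene and the dashed line marking equal changes. Purple points are the 1604 genes whose difference passed the test, with Cfd and Cidea far above the line and Cyp2c69 far below it.

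Levels on the control diet are set beside those of both diets. Comparisons of each diet with it share the control libraries with each other and the high or low libraries with the results above, so they are only set side by side. High isoleucine differed from control in 674 genes (4.51%, 1.89% higher and 2.61% lower) and low isoleucine in 748 (5%, 1.74% higher and 3.26% lower). Mup17 had a median of 4.15 CPM with low isoleucine, 225 CPM with control and 132 CPM with high isoleucine, and was called in the comparison of low with control (-5.24, adjusted p = 7.6e-07) and not in that of high with control (0.29, adjusted p = 0.8). Gstm1 had medians of 650, 577 and 1150 CPM on the low, control and high diets, and was called in the comparison of high with control (1.10, adjusted p = 9.5e-05) and not in that of low with control (0.00, adjusted p = 1). Cfd had medians of 0.0348, 1.49 and 90.5 CPM on the low, control and high diets and was called in both, at -5.27 for low over control (adjusted p = 0.0043) and 5.2 for high over control (adjusted p = 1.8e-05). Male-biased genes had 14 of 24 members lower with low isoleucine than with control (median -1.11). With high isoleucine none passed the threshold against control (median -0.23). NRF2 and glutathione genes had 1 of 20 lower with low isoleucine and 7 higher with high isoleucine. Heat shock genes had 7 of 15 lower with high isoleucine than with control (median -0.46), and with low isoleucine none passed the threshold (median -0.03). Cholesterol synthesis genes were lower than control on both diets, in 8 of 25 members with low isoleucine and 16 with high isoleucine.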

How the data were processed

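RNA of fasted livers was sequenced as stranded libraries on a NovaSeq6000, per the labels, which name a polyA preparation in the description and a total RNA kit in the extract protocol. The authors deposited expected counts per Ensembl gene for 72 libraries, with the aligner and counter not given in the sources used here. The build is GRCm38 and the tools are edgeR and limma under R 3.4.3, per the submitters' processing notes. The last line of the table is incomplete, so 50307 of 50308 genes were used. Counts were rounded (9.56% of the values above 0 were not whole). Genes with enough counts (edgeR filterByExpr by group, 14954) were fitted with edgeR 4.0.16 in R 4.3.3: TMM factors, robust quasi-likelihood, 1 mean for each of the 12 groups of 6 libraries, contrasts of high against low isoleucine in each class, their differences, and each diet against control in B6 males. P-values were Benjamini-Hochberg adjusted over all 14954 genes for each contrast, and the threshold was 0.05. Symbols and coordinates came from the GENCODE annotation of GRCm38.p6. The fit was tested on simulated counts, with libraries drawn independently and the same spread for all genes. That test does not cover a correlation between same-numbered libraries.

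Libraries of the series hold 13 to 51.1 M counts (M, 1e6), and the common biological coefficient of variation was 0.21. Deviations from the diet mean correlated at 0.048 with high and 0.045 with low isoleucine, on average, between same-numbered libraries, against -0.26 between other libraries of either diet, and the consensus correlation of the block was 0.24. Over all pairs of a diet, same-numbered ones included, libraries differed by more than counting noise (chi-square per gene 13.4 to 229). This cannot show that same-numbered libraries are independent, since 2 libraries of 1 animal could also differ by more than that. The main fit counted each library as 1 and did not model the higher correlation of same-numbered libraries, which the block and the summed fits take into account. Where reads of near copies may be split (Mup, Cyp2c, Cyp4a, Gstm and Gbp genes), values are uncertain. The 46 lists and the named genes were chosen with earlier results of these data known. The rule for named genes took the 10 largest rises and the 10 largest falls that were called and averaged at least 1 CPM, as many as 4 called members per list in the order of adjusted p, a fixed panel of 18 genes whatever their test, and the 5 genes with the lowest adjusted p for each difference between classes, from which those printed were taken. The clock genes outside this rule and Fabp4 are printed to describe a list or as a cell marker. Some genes are not reported here. Alternatives covered DESeq2 1.42.0, limma 3.58.1 (with and without quality weights), other scaling, filters, fewer libraries in the fit, the title number as a block (in limma voom) or summed (in edgeR), and each library left out.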

Additional observations from a re-analysis of the deposited data

Results flagged for a closer look

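Among the 103 genes described in the results, 21 of 206 groups of 6 libraries (10.2%) held a library apart by Dixon's ratio at 95%. For normally distributed values chance alone gives about 1 in 20. The ratio was taken on CPM without a log, which need not be so distributed, so the shares are not directly comparable. Genes and libraries are also shared between these groups. With high isoleucine the highest library stood apart for Mup15 (1760 CPM), Cd74 (304 CPM), Capns1 (204 CPM), Cyp2b9 (178 CPM), Nfil3 (31.7 CPM), Lpin1 (24.6 CPM), Cyp2c40 (8.47 CPM), Arntl (7.42 CPM), Cyp2c69 (2.68 CPM) and Cux2 (1.93 CPM). With low isoleucine the highest library stood apart for Mup15 (94.1 CPM), Fasn (72.6 CPM), Sqle (17 CPM), Mup17 (14.5 CPM), Cux2 (11.5 CPM), Ciart (2.92 CPM), Bhlhe41 (1.41 CPM) and Moxd1 (0.0246 CPM, a single count). The lowest low isoleucine library stood apart for Pdk4 (23 CPM), Col3a1 (9.64 CPM) and E2f1 (0.272 CPM).

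For 41 of the 103 genes the log2 fold change in B6 males differed, in a direct test, from the mean of B6 females, DBA females and DBA males. The difference was positive for Cfd (10.71), Cidea (9.07), Gsta1 (4.24), Mup17 (4.19), Mmp12 (2.95), Gstm3 (2.65), Igkc (2.48), Thrsp (2.32), Ntrk2 (2.15), Nat8 (2.11), Gdf15 (1.80), Col1a1 (1.77), Car3 (1.75), Srebf1 (1.49), Col3a1 (1.43), Cxcl1 (1.37), Slc13a3 (1.34), Gstm1 (1.16), Abcg5 (1.09), Fabp4 (1.07), Cyp2u1 (0.93), Abcg8 (0.89) and Capns1 (0.73). It was negative for Cyp2c69 (-4.91), Sqle (-3.43), Cyp2c40 (-3.13), Lpin1 (-2.18), Zbtb16 (-2.01), Hsp90aa1 (-1.35), Mcc (-1.25), Acacb (-1.10), Ehhadh (-1.03), Hsd17b7 (-0.97), Ifit1 (-0.97), Klf11 (-0.90), Cyp4a14 (-0.77), Sirt1 (-0.62), Insr (-0.59), Rora (-0.59), Stat5b (-0.52) and Hspd1 (-0.46). Against B6 females alone the difference was 9.83 for Cfd, -5.24 for Cyp2c69 and -1.77 for Klf11. Against DBA males alone it was 5.18 for Mup17, 2.78 for Nat8 and 1.66 for Slc13a3. With the title number as a block the difference of Cfd from B6 females missed the threshold (adjusted p = 0.058), as did that of Klf11 from the mean of the other classes (adjusted p = 0.064).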

How the results depend on the processing

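The count of 3869 genes called in B6 males was within 1.5 times of itself under other scaling, tools and filters (3141 to 4500) and in fits of fewer libraries (3040 with the 12 libraries, 3073 with the 18 B6 male libraries) but not with the title number as a random block (2476, with 1335 higher and 1141 lower) or with the libraries of a number summed, 3 against 3 (1843, with 1117 higher and 726 lower). The block and the main calls shared 2441 genes. Leaving out 1 library gave 2771 to 3987, and leaving out both libraries of number 14 gave 4248. The title letters N and R pair libraries across diets only as names: with this replicate block 3833 genes were called. Scaling by total counts moved the share of higher calls from 55% to 62.3%.

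Genes that differed from the mean of the other classes numbered 1604, 528 with the title number block, 1065 with no filter on low counts, 284 with summed libraries, and 970 to 1767 with 1 library left out. Those that differed from B6 females numbered 633, 86 with the block, 337 with no filter, 35 with summed libraries, 1014 with quality weights, and 344 to 751 with 1 library left out. Those that differed from DBA males numbered 755, 54 with the block, 394 with no filter, 49 with summed libraries, 1154 without both libraries of number 14, and 426 to 837 with 1 library left out. The cause was not tested.

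Of 180 called genes among the 197 named, 131 stayed called in every alternative, 22 were lost with the block, 11 without both libraries of number 14 and 25 when some 1 library was left out, while 7 uncalled genes were called in at least 1 alternative. No called gene changed direction. Uncalled genes changed sign as follows. Bckdhb was -0.11 with quality weights, -0.01 with no filter, -0.02 with summed libraries, -0.16 without both libraries of number 14 and -0.08 to 0.09 with 1 library left out. Without both libraries of number 14, Igf1 was -0.01, Cyp2b9 0.31 and Stard4 -0.02. With 1 library left out, Cyp2b9 was -2.85 to 0.03, Stard4 -0.12 to 0.25 and Per1 -0.18 to 0.11. With summed libraries, lists kept fewer calls: fatty acid oxidation had 11 lower and none higher, gluconeogenesis and fasting 6 lower and 1 higher, lipid droplets 5 higher and 1 lower, amino acid catabolism 3 in each direction, methionine genes 5 lower, interferon genes 8 higher, acute phase genes 6 higher, heat shock genes 3 lower, and the unfolded protein response and tRNA synthetases none. Low counts limit Cfd, Cidea, Gsta1 and Moxd1 in low isoleucine livers, where sums over 6 libraries were 11, 22, 48 and 1.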

Other observations

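Aminoacyl-tRNA synthetases, which charge tRNAs and include ATF4 targets, had 6 of 19 tested members lower and 2 higher (median -0.17), with 2 in each direction under the title number block and 4 calls without high library 5. Guanylate-binding proteins and immunity-related GTPases, a family that interferon gamma induces, had 5 of 17 members higher and none lower in B6 males, against 12, 13 and 10 higher in B6 females, DBA females and DBA males. Gbp11 had 6.54, 9.91 and 27.6 CPM with high isoleucine and 1.67, 2.18 and 4.26 CPM with low isoleucine in B6 males (log2 fold change 2.55, SE 0.38, adjusted p = 1e-06), and the list had 3 calls when any of low libraries 1, 3, 5 and 6 or high libraries 2 and 3 was left out. Nuclear genes of oxidative phosphorylation had 1 of 32 members higher and 3 lower, and the 13 mitochondrially encoded genes had none in either direction by edgeR's quasi-likelihood test. Alas2, the erythroid enzyme of heme synthesis, was the 1 of 6 erythroid markers that was higher. It had 64.2, 75.7 and 87.8 CPM in high isoleucine livers and 21.4, 32.4 and 42.7 CPM in low isoleucine livers (1.21, SE 0.22, adjusted p = 3.7e-05). The share of this list called was 16.7%, near the 14.2% of all genes that were higher, and its median was -0.02. The erythroid markers summed to 205, 314 and 654 CPM with high isoleucine and 135, 306 and 715 CPM with low isoleucine, so the list did not stand out. Of the fixed panel, Sult1e1, an oestrogen sulfotransferase gene, had 0.381, 1.94 and 8.12 CPM with high isoleucine and 1.45, 3.06 and 8.16 CPM with low isoleucine (adjusted p = 0.54), and Stard4, a sterol carrier gene, had 13.9, 23.5 and 29.6 CPM with high isoleucine and 11.8, 20.3 and 38.8 CPM with low isoleucine (adjusted p = 0.98).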
